A study of Mus musculus with 16 samples.

Results

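The 41 cell cycle genes described here are the cyclins, cyclin-dependent kinases, replication factors, mitotic regulators and kinase inhibitors chosen by gene symbol out of the 37991 genes in the deposited count table of mouse embryonic hearts. All 41 symbols were found, and all 41 passed the filter on low counts that left 14612 genes for testing. They fall into 10 genes of G1/S control (Ccnd1, Ccnd2, Ccnd3, Cdk4, Cdk6, Cdk2, Ccne1, Ccne2, E2f1 and Mycn) and 11 genes of S phase replication (Cdc6, Mcm2 to Mcm7, Pcna, Rrm1, Rrm2 and Tyms). A further 18 belong to G2/M (Ccna2, Ccnb1, Ccnb2, Cdk1, Aurka, Aurkb, Plk1, Bub1, Bub1b, Cdc20, Cenpe, Cenpf, Kif11, Kif20a, Birc5, Tpx2, Top2a and Mki67), and 2 are inhibitors of cyclin-dependent kinases (Cdkn1a and Cdkn1b). The division into these groups followed known function and used no measured value. The 41 genes themselves were chosen with earlier results of these data known.

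A dividing cell passes from a growth phase (G1) through DNA replication (S) and a second gap (G2) to mitosis (M). D-type cyclins with Cdk4 and Cdk6, and then E-type cyclins with Cdk2, release the E2F transcription factors that switch on replication genes, while cyclins A and B with Cdk1 drive entry into mitosis. Cdkn1a (p21) and Cdkn1b (p27) bind and restrain these kinases. In the embryonic heart, cardiomyocytes still divide, and the transcription factor Tbx5 has been linked to their proliferation.

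The hearts were taken at E10.5, mid-gestation, from wild-type mice (WT) and from 3 Tbx5 genotypes, given in the labels as Tbx5 del/+, Tbx5 CreERT2/+ and Tbx5 del/CreERT2. CreERT2 is a Cre recombinase that tamoxifen activates. The labels do not state which part of Tbx5 the del allele lacks, nor a tamoxifen treatment, and the genotypes were taken from the labels. Each genotype had 4 libraries, and because nothing states that these came from separate embryos, p-values measure only the spread between the libraries. The design asks how cell cycle transcripts differ between hearts carrying both alleles, hearts carrying one of them and WT hearts.

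Total counts ran from 21436305 to 42731841 per library. Mitochondrial ribosomal RNA took 42.3% to 78.3% of them, and 3 libraries of different genotypes were lowest in that share: CreERT2/+ 3 at 42.3%, del/CreERT2 3 at 53.6% and WT 4 at 60.6%, next to del/CreERT2 4 at 62.3%. Results that rest on those 3 libraries are given with and without them. Heart muscle markers were abundant in every library (7 of 7 tested, summed level 15590 to 19120 CPM, the count scaled to library size by TMM). The whole-gene level of Tbx5 was 13.7 to 25.7 CPM in WT, 24.8 to 41.5 in del/+, 18.2 to 39.2 in CreERT2/+ and 20.3 to 24.2 in del/CreERT2. Counts over the whole gene do not separate the deleted part from the rest, so they do not check the genotype labels.

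The promoters of the G2/M genes share short sequence motifs that those of the G1/S control genes mostly lack. Of these motifs, the CCAAT box is also common in promoters of the S phase genes. RefSeq promoter windows (GRCm38.p6, 250 bases before to 50 bases after a start site) were available for 33 of the 41 members, as 36 windows. Ccnd1, Ccnd2, Ccne2, Mcm4, Ccna2, Aurkb, Kif20a and Tpx2 had none. On both strands, 3 motifs were searched. They were the cell cycle homology region (CHR; TTTGAA or TTCGAA), to which repressor and activator complexes of late cell cycle genes bind, the CCAAT box bound by NF-Y, and the E2F site (TTTCCCGC, TTTGGCGC, TTTCGCGC or TTTGCCGC). Windows in which different motifs shared bases numbered 1 of the 36. The windows printed next were chosen because they show the motif pattern of each phase in members described by library later (Ccnb2, Cdk1 and Mcm5) or hold several matches (Top2a and Mcm6). Capitals mark the motif matches. Ccnb2 (chr9:70421505-70421804, minus strand), Cdk1 (chr10:69352863-69353162, minus strand) and Top2a (chr11:99024140-99024439, minus strand) are G2/M genes, and Mcm5 (chr8:75109259-75109558, plus strand) and Mcm6 (chr1:128359656-128359955, minus strand) encode subunits of the replicative helicase.
Ccnb2: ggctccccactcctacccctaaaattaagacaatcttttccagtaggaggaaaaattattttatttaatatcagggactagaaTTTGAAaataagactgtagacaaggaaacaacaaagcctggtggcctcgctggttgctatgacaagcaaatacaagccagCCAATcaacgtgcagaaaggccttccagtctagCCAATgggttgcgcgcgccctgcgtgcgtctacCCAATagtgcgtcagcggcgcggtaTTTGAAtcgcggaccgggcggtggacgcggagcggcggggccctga
Cdk1: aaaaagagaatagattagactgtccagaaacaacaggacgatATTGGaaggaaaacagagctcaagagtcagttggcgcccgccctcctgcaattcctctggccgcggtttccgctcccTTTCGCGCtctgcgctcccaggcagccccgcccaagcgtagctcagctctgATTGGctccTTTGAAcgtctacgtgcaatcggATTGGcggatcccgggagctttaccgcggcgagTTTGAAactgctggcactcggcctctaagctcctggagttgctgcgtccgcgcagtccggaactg
Top2a: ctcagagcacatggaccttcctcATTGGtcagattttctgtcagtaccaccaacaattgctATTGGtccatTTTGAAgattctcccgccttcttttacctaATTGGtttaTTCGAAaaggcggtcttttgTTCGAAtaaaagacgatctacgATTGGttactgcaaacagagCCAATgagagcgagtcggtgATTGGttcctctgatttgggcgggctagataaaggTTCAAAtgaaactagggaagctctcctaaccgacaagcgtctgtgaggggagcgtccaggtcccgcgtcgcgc
Mcm5: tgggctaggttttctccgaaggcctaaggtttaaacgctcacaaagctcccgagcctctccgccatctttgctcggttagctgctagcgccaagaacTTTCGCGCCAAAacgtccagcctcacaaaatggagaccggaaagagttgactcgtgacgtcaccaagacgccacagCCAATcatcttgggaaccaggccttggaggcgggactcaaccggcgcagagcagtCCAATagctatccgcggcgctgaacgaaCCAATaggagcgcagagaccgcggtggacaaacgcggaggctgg
Mcm6: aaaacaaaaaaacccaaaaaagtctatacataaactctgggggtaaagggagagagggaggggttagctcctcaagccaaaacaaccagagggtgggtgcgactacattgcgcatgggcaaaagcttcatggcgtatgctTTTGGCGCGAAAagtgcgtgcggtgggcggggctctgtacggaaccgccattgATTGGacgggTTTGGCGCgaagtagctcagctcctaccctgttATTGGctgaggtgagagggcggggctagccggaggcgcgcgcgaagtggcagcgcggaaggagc

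Ccnb2 and Cdk1 each carried 2 CHR matches and 3 CCAAT boxes, and Top2a carried 4 and 6. A CHR match stood in 11 of 14 G2/M windows (78.6%), in 2 of 11 S phase windows (18.2%), in 1 of 8 G1/S control windows (12.5%) and in 19.2% of all 32851 windows of the RefSeq table. A CCAAT box stood in 13 of 14 G2/M windows (92.9%), in 9 of 11 S phase windows (81.8%), in 2 of 8 G1/S control windows (25%) and in 37.4% of all windows. Both motifs together were found in 11 of 14 G2/M windows against 7.52% of all. E2F matches showed another distribution: 5 of 11 S phase windows (45.5%), 2 of 8 G1/S control windows, 1 of 14 G2/M windows (7.14%, that of Cdk1) and 2.26% of all. Mcm5 held 2 and Mcm6 3 such matches, counted on both strands. The 2 matches of Mcm5 overlap each other, as do 2 of the 3 of Mcm6. Neither Cdkn1a window held any of the 3 motifs, and the Cdkn1b window held 3 CCAAT boxes. These matches describe letters in a window and were not tested.

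**Figure D1:**
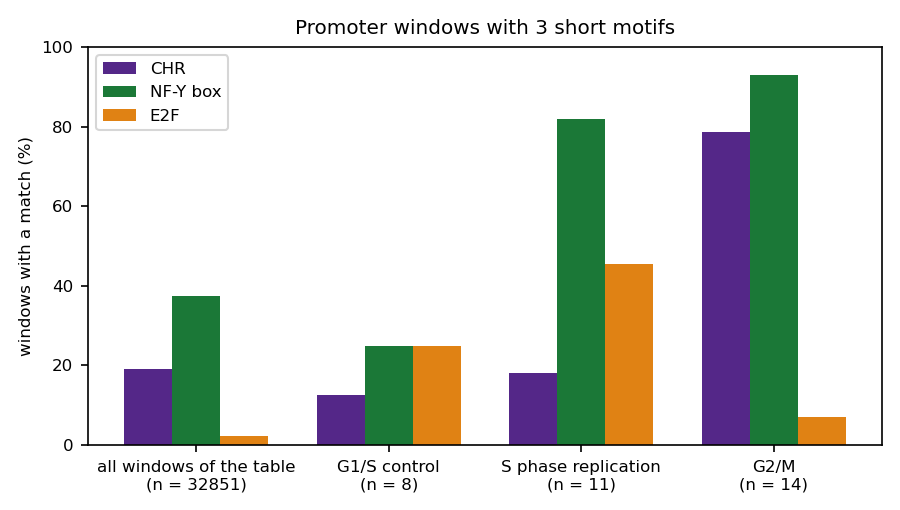
Share of RefSeq promoter windows (y axis, percent of windows) with at least 1 match to the CHR, the NF-Y box (CCAAT) or the E2F motif, for all windows of the table and for 3 groups of cell cycle genes (x axis, with the number of windows). CHR matches reach 78.6% in G2/M and E2F matches 45.5% in S phase replication, against 19.2% and 2.26% of all windows.

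WT levels of the members spanned a wide range, with genes of replication, mitosis and G1/S control at the top and with Cdk6 and Cdkn1b at the bottom. On a scale corrected for gene length (mean CPM per kilobase, n = 4), Pcna, the sliding clamp of DNA polymerase, was highest at 40.7 ± 10.9 (SD). Top2a, the topoisomerase that untangles chromosomes, followed at 35.0 ± 5.21 and Cdk4, the partner of D cyclins, at 30.7 ± 6.70. Their spreads overlap, so the order of these 3 levels is not set. A pseudogene of Pcna, Pcna-ps2, had 0 to 210 counts per library, and reads could be split with it. Among D cyclins, Ccnd3 stood at 23.2 ± 4.85, Ccnd2 at 14.4 ± 4.14 and Ccnd1 at 5.36 ± 1.06 CPM per kilobase, so that Ccnd1 lay below the other two beyond their SDs. Cdk6, the alternative D cyclin partner, was lowest of all 41 at 1.01 ± 0.34, about level with Cdkn1b at 1.06 ± 0.31. Cdkn1a stood at 3.61 ± 0.64 and the E-type cyclin Ccne2 at 8.15 ± 2.55, above Ccne1 at 2.05 ± 0.47 CPM per kilobase. The smallest count of any member in any library was 43 (Cdk6), and every other member had at least 74.

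**Figure D2:**
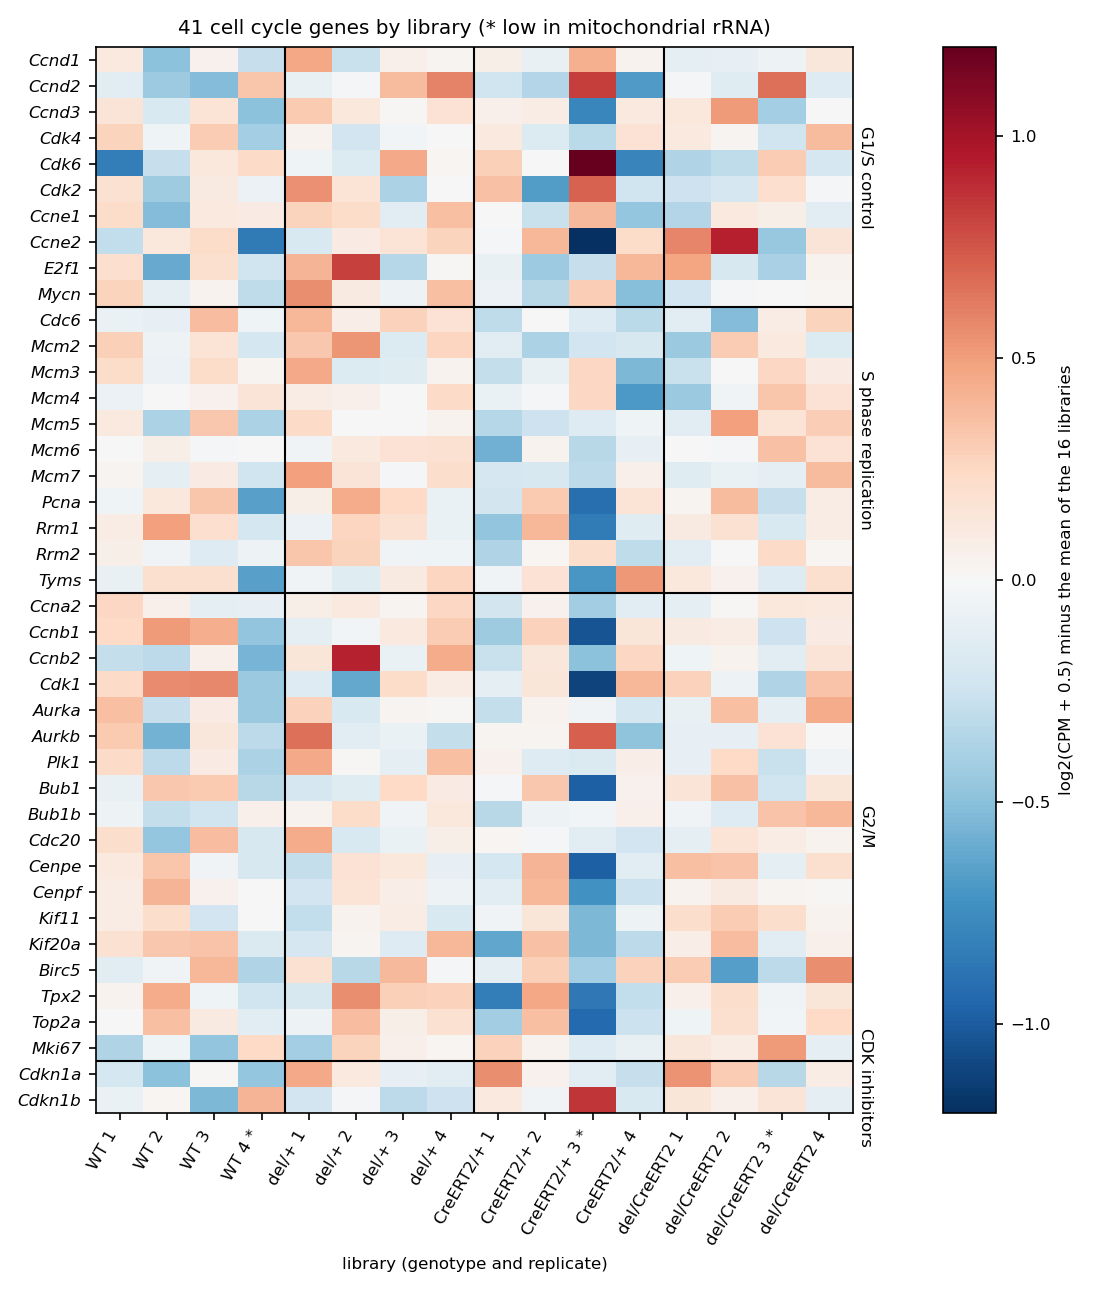
Heat map of the 41 cell cycle genes (rows, ordered by group) in the 16 libraries (columns, 4 per genotype, asterisks on the 3 libraries low in mitochondrial ribosomal RNA), coloured by log2(CPM + 0.5) minus the mean of the 16 libraries (colour limited to 1.2 either way). The column of CreERT2/+ 3 stands apart with low Ccne2, Pcna and Cdk1 and high Ccnd2, Cdk6 and Cdkn1b.

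None of the 41 genes passed the test between WT and any Tbx5 genotype. At an adjusted p of 0.05 (edgeR's quasi-likelihood test, Benjamini-Hochberg over 14612 genes), 0 of 41 members were called in del/+ against WT, where 0.116% of all genes were. In CreERT2/+ against WT the call was 0 of 41 beside 0.0342% of all genes, and in del/CreERT2 against WT 0 of 41 beside 0.335%. At an unadjusted p under 0.05 the members counted 1, 0 and 0, which is 2.44%, 0% and 0% beside 5.81%, 3.71% and 5.67% of all genes. DESeq2 also called 0 members, with 1, 0 and 0 at unadjusted p, and limma-voom with quality weights called 0, with 2, 4 and 2. The shares of all genes at unadjusted p by these methods are not given here, so their counts cannot be set against a background. The authors' deposited table called none either, its lowest adjusted p over the members being 0.983.

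The intervals limit how large an undetected change could be. The 95% interval of the log2 change lay within 2-fold in both directions for 38 of 41 members (92.7%) in del/+ against WT, for 40 of 41 (97.6%) in CreERT2/+ and for 40 of 41 in del/CreERT2, against 60.1%, 60.9% and 61.0% of all tested genes. Smaller changes could go undetected with 4 libraries a group: the median standard error of the members' log2 change was 0.23 in each comparison. Over all tested genes it was 0.30 in each, so the shares within 2-fold compare genes measured with unlike precision. Because these are whole hearts, fewer cells of a type and less RNA per cell cannot be told apart. For no member did the 4 libraries of a Tbx5 genotype lie wholly above or wholly below those of WT. Of all genes, 2.18% lay above and 1.88% below in del/+, 1.05% and 0.602% in CreERT2/+, and 2.31% and 1.96% in del/CreERT2. The 3 comparisons share their WT libraries.

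**Figure D3:**
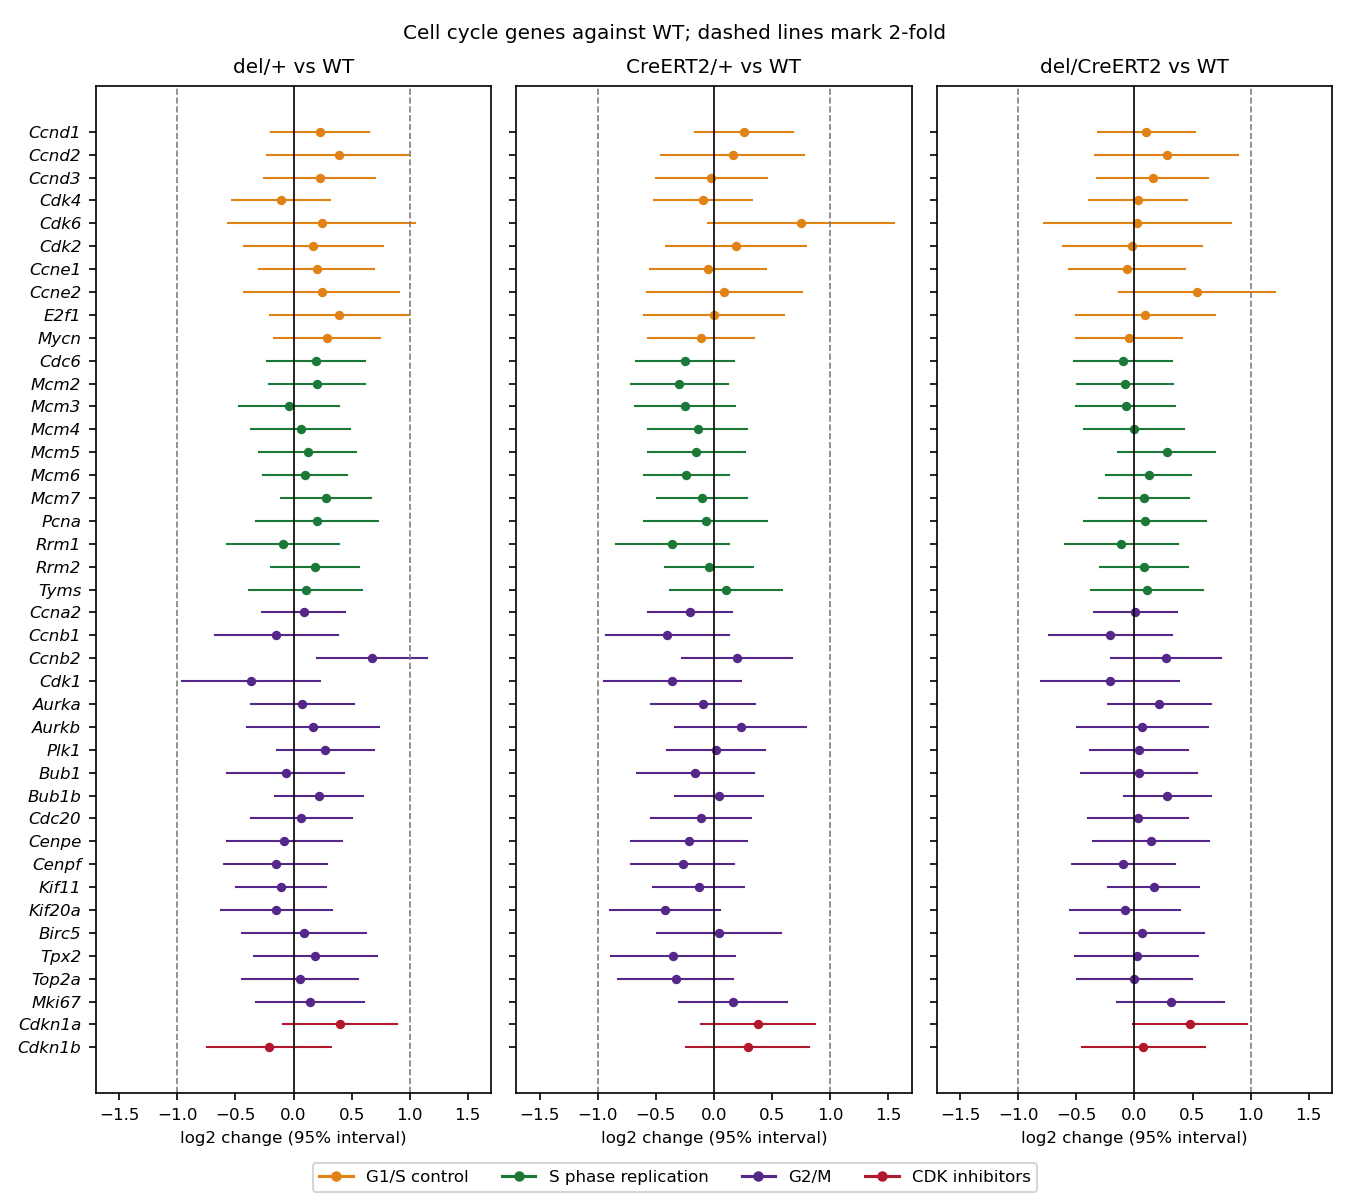
Log2 change of each cell cycle gene against WT (x axis) for del/+, CreERT2/+ and del/CreERT2 (panels); points are edgeR estimates, bars are 95% intervals and colours mark the 4 groups of genes. Nearly all bars cross 0 and stay between the dashed 2-fold lines; the Ccnb2 bar in del/+ runs from 0.20 to 1.15.

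Among G1/S control genes, median log2 changes against WT were 0.24 in del/+, 0.05 in CreERT2/+ and 0.06 in del/CreERT2, beside -0.02, 0.01 and -0.003 for all tested genes. Estimates were positive for 9, 6 and 7 of the 10 genes, beside 47.8%, 51.7% and 49.5% of all tested genes. Ccne2, the E-type cyclin that activates Cdk2, measured 25.5, 34.5, 36.7 and 17.3 CPM in WT, 27.6, 33.8, 35.4 and 38.0 in del/+, 30.9, 41.6, 12.1 and 36.8 in CreERT2/+, and 47.4, 60.4, 22.9 and 35.0 in del/CreERT2. Its highest libraries were del/CreERT2 1 and 2, but the groups overlapped. The log2 change in del/CreERT2 was 0.54 ± 0.32 (SE; 95% interval -0.13 to 1.21, adjusted p = 0.999 by edgeR). It was 0.29 without del/CreERT2 2 and 0.36 without WT 4. Each of the 3 libraries low in mitochondrial ribosomal RNA was the lowest of its genotype for Ccne2. Without them the change was 0.56 ± 0.20 (adjusted p = 0.346 by edgeR). Its partner gene Ccne1 measured 3.63 to 6.42 CPM in WT and 4.17 to 5.96 in del/CreERT2, overlapping, with a change of -0.07 ± 0.24.

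Cdk6 was the G1/S gene whose genotype means differed most, by 1.66 times between CreERT2/+ and WT. It measured 2.13, 3.37, 4.59 and 4.97 CPM in WT, 4.00, 3.68, 5.90 and 4.26 in del/+, 5.19, 4.18, 13.4 and 2.20 in CreERT2/+, and 3.14, 3.3, 5.26 and 3.56 in del/CreERT2. A single library, CreERT2/+ 3, held the high value. The change in CreERT2/+ was 0.75 ± 0.39 (adjusted p = 1 by edgeR) and came to 0.05 without that library.

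E2f1, a transcription factor of replication genes, had the lowest p of the higher G1/S genes in del/+: 6.82, 3.71, 6.81 and 4.92 CPM in WT against 7.97, 10.8, 4.55 and 5.93 in del/+. In CreERT2/+ it measured 5.5, 4.22, 4.78 and 7.89 CPM and in del/CreERT2 8.38, 5.08, 4.37 and 6.06. Both del/+ 1 and del/+ 2 lay above all WT libraries while the others overlapped them, and the change was 0.39 ± 0.29 (adjusted p = 0.931 by edgeR). It was 0.14 without del/+ 2 and 0.24 without WT 2. Cdk4 measured 116, 92.4, 119 and 72.3 CPM in WT, 99, 81.4, 93.8 and 96.0 in del/+, 104, 85.7, 76.7 and 108 in CreERT2/+, and 104, 98.4, 81.0 and 125 in del/CreERT2. All genotypes overlapped, with a change of -0.11 ± 0.20 in del/+. Mycn, a growth-promoting transcription factor, measured 8.63, 6.51, 7.32 and 5.63 CPM in WT, 10.6, 7.68, 6.77 and 9.24 in del/+, 6.73, 5.53, 8.79 and 4.82 in CreERT2/+, and 5.98, 6.97, 7.03 and 7.19 in del/CreERT2. Its change in CreERT2/+ was -0.11 ± 0.22, within the overlap of the groups, and -0.30 without CreERT2/+ 3 or -0.001 without CreERT2/+ 4.

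No S phase gene was called against WT. Their median log2 changes were 0.12 in del/+, -0.15 in CreERT2/+ and 0.08 in del/CreERT2. Positive estimates were found for 9, 1 and 6 of 11 genes, beside 47.8%, 51.7% and 49.5% of all tested genes. All 11 intervals lay within 2-fold in each comparison. Mcm5 measured 18.4, 12.9, 21.3 and 12.9 CPM in WT, 20, 17.0, 16.9 and 17.5 in del/+, 13.3, 14.2, 15.1 and 16.3 in CreERT2/+, and 15.4, 24.0, 19.0 and 20.9 in del/CreERT2. The del/CreERT2 and WT libraries overlapped, with a change of 0.28 ± 0.20 (adjusted p = 1 by edgeR). Leaving out 1 library gave 0.17 (without del/CreERT2 2) to 0.43 (without WT 3), and 0.175 without WT 2 or without WT 4.

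Mcm2, another helicase subunit, had the largest ratio between genotype means in this group, 1.41 times between del/+ and CreERT2/+. It measured 35.2, 27.6, 32.2 and 24.8 CPM in WT, 36.2, 41.7, 25.6 and 34.4 in del/+, 26.1, 21.9, 24.5 and 25.1 in CreERT2/+, and 21, 35.5, 31.1 and 25.6 in del/CreERT2. CreERT2/+ had the lowest mean and the narrowest range, but it overlapped WT, and its change from WT was -0.30 ± 0.20 (adjusted p = 1 by edgeR). Mcm7 measured 26.4, 23.7, 27.5 and 21.8 CPM in WT, 36.6, 28.7, 25.3 and 30 in del/+, 22.3, 22.4, 20.7 and 27.0 in CreERT2/+, and 23.2, 24.3, 23.8 and 33.8 in del/CreERT2. Of the del/+ libraries 3 lay above all WT libraries, with a change of 0.28 ± 0.19 (adjusted p = 0.919 by edgeR), or 0.17 without del/+ 1. Mcm7 shares 7.25% of its exonic length with Ap4m1 on the other strand, and strand use in counting is not given in the sources used here. The same limit holds for Ccnd1 (21.3%, Oraov1), Cdk4 (18.6%, Tspan31), Ccne2 (17.4%, Ints8), Ccnd3 (15.7%, Bysl) and Ccna2 (14.6%, Exosc9).

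Rrm1, the large subunit of ribonucleotide reductase, which makes the DNA precursors, had the lowest p among the lower S phase genes in all 3 comparisons with WT. It measured 101, 134, 109 and 82.2 CPM in WT, 90.3, 113, 108 and 90.1 in del/+, 68.1, 126, 53 and 86.0 in CreERT2/+, and 102, 108, 83.8 and 101 in del/CreERT2. All groups overlapped, and the changes were -0.09 ± 0.23, -0.36 ± 0.23 and -0.11 ± 0.23. The CreERT2/+ value was -0.64 without CreERT2/+ 2, -0.23 without WT 2 and -0.19 without CreERT2/+ 3, and the others changed sign with 1 library left out. Tyms, thymidylate synthase, measured 42.2, 51.5, 51.5 and 28.5 CPM in WT, 43.6, 40.6, 48.5 and 53.9 in del/+, 43.7, 50.7, 27.6 and 64.7 in CreERT2/+, and 49.0, 46.6, 40.4 and 51.4 in del/CreERT2. Its change in CreERT2/+ was 0.10 ± 0.23.

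In the G2/M group, Ccnb2 in del/+ hearts came nearest to a change. Cyclin B2 is a partner of Cdk1 at mitosis. It measured 19.1, 18.8, 24.4 and 15.7 CPM in WT, 25.9, 44.7, 22.0 and 32.1 in del/+, 19.3, 25.8, 16.5 and 27.9 in CreERT2/+, and 22.6, 24.1, 21.4 and 26.1 in del/CreERT2. Of the del/+ libraries 3 lay above every WT library, and del/+ 2 was the highest of all 16. The change in del/+ was 0.68 ± 0.23 (95% interval 0.20 to 1.15, adjusted p = 0.652 by edgeR) and 0.45 without del/+ 2. In CreERT2/+ it was 0.20 ± 0.23 and in del/CreERT2 0.27 ± 0.23. A pseudogene, Ccnb2-ps, has its own 2 to 41 counts per library, and reads could be split with it. The gene lies on the minus strand of chromosome 9 from 70255496 to 70269361 (mm9).

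Cdk1, the kinase that cyclin B2 activates, had an estimate of the opposite sign in del/+. It measured 65.5, 82.7, 83.2 and 40.8 CPM in WT, 50.2, 36.4, 65.0 and 59.5 in del/+, 51.9, 61.9, 25.6 and 73.5 in CreERT2/+, and 67.6, 53.6, 43.4 and 70.7 in del/CreERT2. WT 2 and WT 3 were the highest of all 16 libraries, and every genotype overlapped WT. Its change in del/+ was -0.37 ± 0.29 (adjusted p = 0.944 by edgeR), or -0.23 without del/+ 2. Ccnb1, the other B-type cyclin, measured 89.8, 109, 103.4 and 54.9 CPM in WT, 70.7, 74.7, 82.6 and 94.2 in del/+, 56.7, 92.3, 36.9 and 84.5 in CreERT2/+, and 82.0, 81.0, 64.0 and 81.7 in del/CreERT2. It had a change of -0.21 ± 0.26 in del/CreERT2, within the overlap of the groups, and -0.39 without WT 4 or -0.10 without WT 2.

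Bub1b, a kinase of the spindle checkpoint, measured 27.4, 23.5, 24.2 and 29.8 CPM in WT, 29.6, 33.5, 27.8 and 31.2 in del/+, 22.6, 27.5, 27.9 and 30 in CreERT2/+, and 27.7, 25.6, 36.4 and 37.9 in del/CreERT2. Among the del/CreERT2 libraries 2 lay above all WT libraries, with a change of 0.28 ± 0.18 (adjusted p = 1 by edgeR), or 0.19 without del/CreERT2 4. Kif20a, a mitotic kinesin, measured 17.7, 19.6, 19.9 and 13.7 CPM in WT, 13.5, 15.9, 13.9 and 20.7 in del/+, 9.92, 19.9, 10.6 and 12.4 in CreERT2/+, and 16.5, 20.2, 14.2 and 16.2 in del/CreERT2. In CreERT2/+ 3 of 4 libraries lay below all WT libraries, with a change of -0.42 ± 0.23 (adjusted p = 1 by edgeR), or -0.70 without CreERT2/+ 2. Kif20a shares 32.3% of its exonic length with Cdc23 on the other strand. Mki67, the gene of the Ki-67 proliferation antigen, had log2 changes of 0.14 ± 0.22, 0.16 ± 0.22 and 0.31 ± 0.22 in del/+, CreERT2/+ and del/CreERT2. Top2a had one of 0.00 ± 0.24 in del/CreERT2. The median G2/M log2 changes were 0.07, -0.15 and 0.04. Positive estimates were found for 11, 6 and 13 of 18 genes, beside 47.8%, 51.7% and 49.5% of all tested genes.

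Of the kinase inhibitors, Cdkn1a was higher in its mean in every Tbx5 genotype than in WT without passing the test. It measured 8.40, 6.84, 9.88 and 6.97 CPM in WT, 13.6, 10.7, 9.13 and 8.94 in del/+, 14.7, 10.2, 8.91 and 7.99 in CreERT2/+, and 14.5, 12.2, 7.69 and 10.4 in del/CreERT2. The highest libraries of each Tbx5 genotype exceeded all WT libraries, and the lowest ones overlapped WT. The changes were 0.40 ± 0.24 in del/+ (adjusted p = 0.916 by edgeR), 0.38 ± 0.24 in CreERT2/+ (adjusted p = 1) and 0.48 ± 0.24 in del/CreERT2 (95% interval -0.01 to 0.97, adjusted p = 0.887). The estimates share the same 4 WT libraries. The del/+ value was 0.26 without del/+ 1, and the CreERT2/+ value was 0.17 without CreERT2/+ 1. With CreERT2/+ 3, del/CreERT2 3 and WT 4 left out the change in del/CreERT2 was 0.56 ± 0.23 (adjusted p = 0.471 by edgeR). Cdkn1a is also a target of p53, and among 19 tested p53 targets other than the members the median log2 changes were -0.01, -0.04 and -0.04. None of these targets was called, beside 0.116%, 0.0342% and 0.335% of all genes. Single targets ran from -1.64 to 1.22 in del/+, from -1.28 to 0.71 in CreERT2/+ and from -1.47 to 0.53 in del/CreERT2. The part of p53 in the Cdkn1a values was not tested.

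Cdkn1b measured 4.55, 4.91, 3.18 and 6.57 CPM in WT, 4.04, 4.80, 3.78 and 4.00 in del/+, 5.29, 4.68, 9.14 and 4.20 in CreERT2/+, and 5.39, 5.05, 5.43 and 4.42 in del/CreERT2. Its genotype means differed by at most 1.40 times, and CreERT2/+ 3 was the highest library, before WT 4. The changes were -0.21 ± 0.26, 0.29 ± 0.26 and 0.08 ± 0.26, and the CreERT2/+ value was -0.01 without CreERT2/+ 3.

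G1/S and S phase genes together were set against G2/M genes by the difference of their median log2 changes. It was -0.13 in del/+ (median 0.20 for the 21 G1 and S genes), -0.07 in CreERT2/+ and -0.04 in del/CreERT2 against WT, where negative means that G2/M lay lower. Between the Tbx5 genotypes it was 0.13 in del/CreERT2 against del/+, 0.06 in del/CreERT2 against CreERT2/+ and 0.08 in CreERT2/+ against del/+. With 1 library left out, 3 of the 6 changed sign. CreERT2/+ against WT reached 0.09 without CreERT2/+ 3. The value for del/CreERT2 against WT reached 0.08 without WT 2, 0.05 without del/CreERT2 3 and 0.002 without WT 1. That for del/CreERT2 against CreERT2/+ was -0.04 without CreERT2/+ 3, and -0.05 when the 3 libraries low in mitochondrial rRNA were left out. None of these differences was tested, and the differences between library means of the same groups ran, in log2 units of G2/M minus G1 and S, from 0.46 in CreERT2/+ 3 to 1.14 in CreERT2/+ 2, within one genotype.

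Between the Tbx5 genotypes, the replication genes all had estimates of the same sign when CreERT2/+ was set against del/+. In CreERT2/+ against del/+ all 11 S phase genes had negative estimates (median log2 change -0.28), as had 15 of 18 G2/M genes (median -0.17), where all tested genes had a median of 0.03 and 53.9% positive estimates. No member was called, and 0 of 14612 genes were (edgeR, 0%), with 611 at unadjusted p under 0.05 (4.18%); DESeq2 and limma-voom called 0 genes as well. At that level 4 members stood (9.76%): Mcm2 at -0.50 ± 0.20, Cdc6 at -0.45 ± 0.21, Ccnb2 at -0.48 ± 0.23 and Tpx2 at -0.54 ± 0.26, each with an adjusted p of 0.997. DESeq2 put 5 members at that level and limma-voom 7, again with none called. The shares of all genes at that level by these methods are not given, so their counts cannot be set against a background. Liver markers were lower for 4 of 4 tested in the same comparison (median log2 change -4.14, 4 at unadjusted p under 0.05 and 0 called). Their summed level was 233 CPM in del/+ 1, 0.903 to 3.57 in the other del/+ libraries and 0.514 to 12.1 in CreERT2/+. Red blood cell markers were lower for 6 of 8 (median -0.25). The part of these cell types in the members' estimates was not tested. Over the 41 members the median was -0.21, and -0.20 without del/+ 1. Cdc6, which loads the helicase on origins, measured 12.1, 9.60, 11.1 and 10.3 CPM in del/+ and 7.25, 9.11, 8.10 and 7.17 in CreERT2/+, without overlap, and is named after its values were seen. Mcm5 also had all CreERT2/+ libraries below all del/+ libraries. These 2 genes are 4.88% of the members, where 0.883% of all genes had CreERT2/+ wholly below del/+; 0 members and 1.44% of all genes lay wholly above.

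In del/CreERT2 against CreERT2/+, which shares the CreERT2/+ libraries with that comparison, all 11 S phase genes and 17 of 18 G2/M genes had positive estimates (medians 0.17 and 0.20). Of all tested genes 48.1% had positive estimates here, with a median of -0.015. No member was called, beside 0.0753% of all genes. Mcm5 alone had an unadjusted p under 0.05, where 3.97% of all genes did, at 0.43 ± 0.20 (adjusted p = 0.999 by edgeR). The libraries of the 2 genotypes overlapped for all members, while 1.24% of all genes lay wholly above and 1.25% wholly below. In del/CreERT2 against del/+ the median over the 41 members was -0.06, with 0 called beside 0.0205% of all genes, and 0 without overlap beside 2.47% above and 1.72% below. When those 3 libraries were left out, the members' medians in these comparisons were -0.19 (CreERT2/+ against del/+), 0.14 (del/CreERT2 against CreERT2/+) and -0.01.

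**Figure D4:**
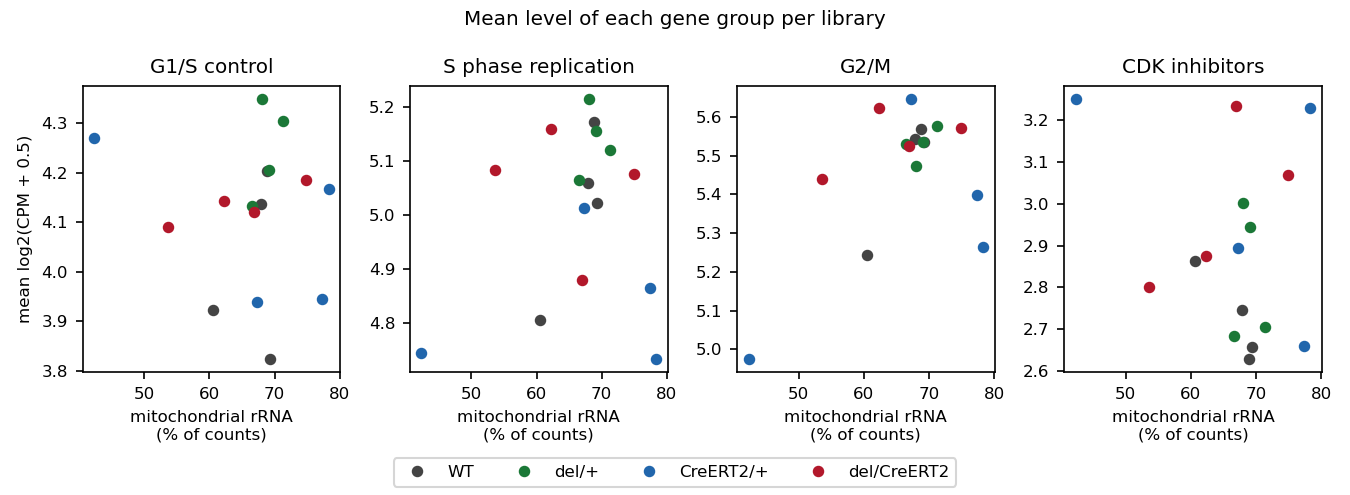
Mean log2(CPM + 0.5) of each group of cell cycle genes (y axis, 1 panel per group) against the share of counts in mitochondrial ribosomal RNA (x axis, percent), 1 point per library coloured by genotype. The lowest G2/M mean, 4.98, belongs to CreERT2/+ 3, the library with the lowest share (42.3%).

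Several cell cycle genes lay apart in the libraries low in mitochondrial ribosomal RNA. In the 3 libraries lowest in that share, Ccne2 measured 12.1, 17.3 and 22.9 CPM, against 25.5 to 60.4 in the other 13. Pcna measured 52.8 to 81.5 against 84.7 to 135, Ccnd3 31.4 to 41.1 against 48.1 to 78.0, and Tyms 27.6 to 40.4 against 40.6 to 64.7 CPM. Bub1, a spindle checkpoint kinase, measured 30.4 to 51.1 against 52.4 to 77.1, and Cdk4 72.3 to 81.0 against 81.4 to 125 CPM. These 6 of 41 members (14.6%) had all 3 libraries below the other 13, as had 6.17% of all tested genes. Cdkn1b was the only member with all 3 above, at 5.43 to 9.14 against 3.18 to 5.39 CPM (2.44% of members, 8.76% of all genes). These 7 genes were picked after their values were seen, and the split of libraries is not one of the study's groups.

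The D cyclins differed in direction in those libraries. Ccnd2 was 0.75 higher on the log2 scale (115 to 162 against 56.6 to 138 CPM), Ccnd3 lay 0.69 lower (a difference of -0.69) and Ccnd1 differed by 0.04. Cdk6 differed by 0.86 and Cdk1 by -0.78, both overlapping. Over the 18 G2/M genes the median difference was -0.34 with 15 lower, over the S phase genes -0.13, over G1/S control 0.01 and over all tested genes 0.02. Red blood cell markers differed alongside, with 7 of 8 lower in the 3 libraries (median -0.80), and their summed level was 1512, 1548 and 2993 CPM there against 2783 to 6334 in the other 13. Endothelial markers had 6 of 7 higher (median 0.52). Heart muscle markers had 4 of 7 lower (median -0.40), with 2 wholly below the other 13 libraries and 1 wholly above. Their mean log2(CPM + 0.5) was 10.038 to 10.105 in the 3 against 10.164 to 10.405, while their summed level overlapped. Liver markers had 4 of 4 lower (median -0.845), all overlapping. Epicardial markers had 4 of 6 lower (median -0.19). Cushion mesenchyme markers had 3 of 5 higher (median 0.07) and leukocyte markers 3 of 4 (median 0.20). By genotype the summed red blood cell level was 1512 to 6334 CPM in WT, 3935 to 5872 in del/+, 1548 to 5100 in CreERT2/+ and 2783 to 3944 in del/CreERT2. The part of cell composition or RNA quality in these differences was not tested.

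Leaving these 3 libraries out called no member in any comparison. The shares of all genes called in that setting are not given here. Ccnd2 in del/+ against WT then reached 0.59 ± 0.18 (adjusted p = 0.251 by edgeR), from 0.39 ± 0.30 with all libraries, where it measured 83.3, 67.3, 63.4 and 115 CPM in WT and 85.4, 89.4, 118 and 138 in del/+. The WT library at 115 CPM is WT 4, 1 of the 3, and the other 3 WT libraries lay below all del/+ libraries. Ccnd2 is named here after its values were seen. Cdk1 in the same comparison reached -0.55 ± 0.19 (adjusted p = 0.327 by edgeR) and Ccnb2 0.59 ± 0.21 (adjusted p = 0.371).

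**Figure D5:**
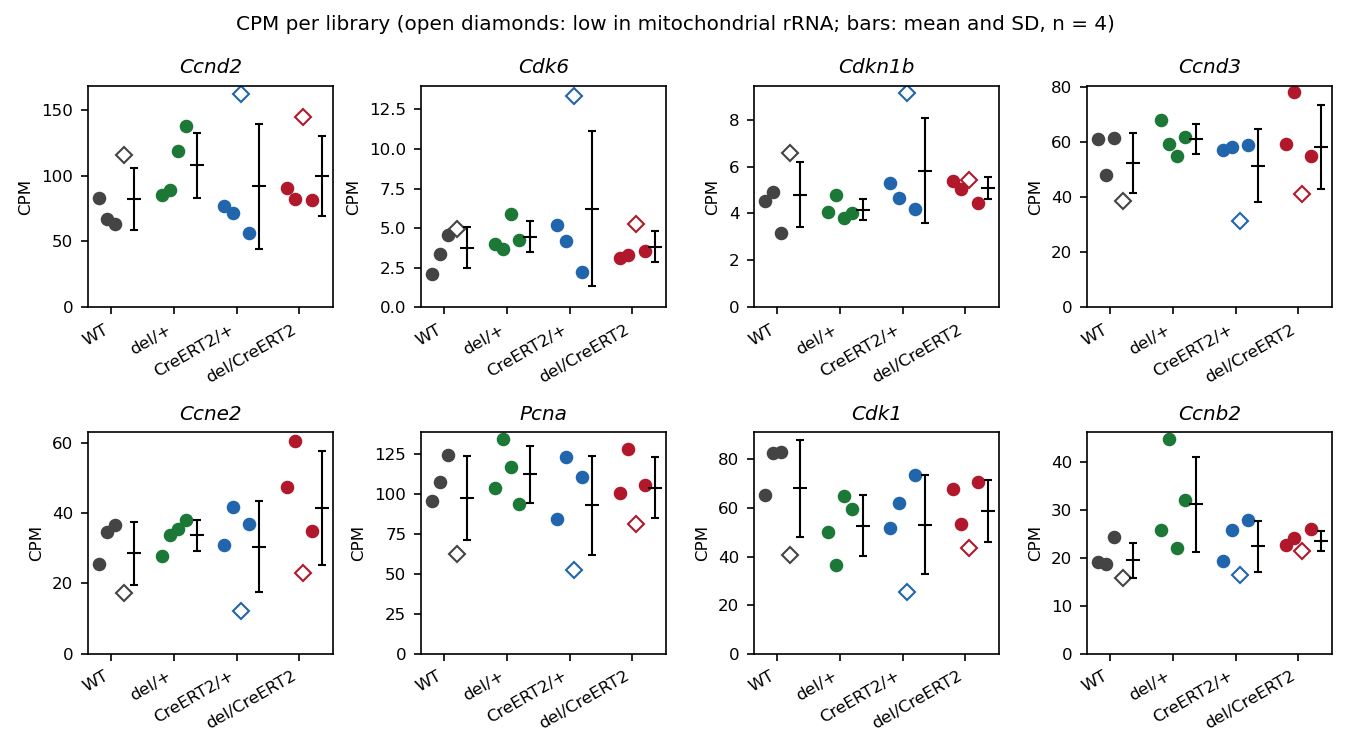
CPM of 8 cell cycle genes (panels, y axis) in the 4 genotypes (x axis); each point is a library, open diamonds are the 3 libraries low in mitochondrial ribosomal RNA, and bars show the mean and SD (n = 4). The diamonds lie low for Ccnd3, Ccne2, Pcna and Cdk1 and high for Ccnd2 and Cdkn1b, while 1 library, del/+ 2 at 44.7 CPM, lies highest for Ccnb2.

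Other genes of the same pathways were not called either. Of all tested genes, 0.116%, 0.0342% and 0.335% were called in del/+, CreERT2/+ and del/CreERT2 against WT, so lists this small would mostly hold none. No gene was called in any of the 3 comparisons with WT among 18 Rb and E2F family genes, 36 further replication genes and 42 further mitosis and checkpoint genes. The same held for 9 further cyclin-dependent kinases and phosphatases and 3 further kinase inhibitors. In del/CreERT2 against WT their median log2 changes were 0.02, -0.03, 0.03, -0.06 and -0.34. Cdkn1c (p57), a kinase inhibitor of embryonic tissues, measured 375, 240, 291 and 160 CPM in WT and 167, 234, 136 and 228 in del/CreERT2. The groups overlapped, with a change of -0.48 ± 0.26 (adjusted p = 0.957 by edgeR). The lowest p in the other cell cycle lists belonged to Rbl2 (-0.46), Orc4 (0.37), Cdc23 (-0.29) and Cdc25c (-0.26). Among p53 targets it belonged to Trp53inp1 (-0.51, adjusted p = 0.824 by edgeR). Cdkn2a had 0 counts in all 16 libraries, and Cdkn2b, Cdkn2d, Ccna1 and Fen1 had too few counts to be tested.

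Markers of other cell types were measured beside them. Epicardial markers were negative for 6 of 6 in del/CreERT2 against WT (median log2 change -0.62), with 0 called beside 0.335% of all genes. Their summed level was 52.6 to 68.4 CPM in del/CreERT2 and 88.8 to 106 in WT. Of these markers, Aldh1a2 had the lowest p, with a change of -1.14 ± 0.26 (adjusted p = 0.0615 by edgeR). Lyz2, a macrophage gene, was the single listed gene that passed the test, falling from 15.5 ± 6.27 to 5.04 ± 2.32 CPM (SD, n = 4; log2 change -1.62 ± 0.35, adjusted p = 0.0449 by edgeR). The other 3 tested genes of the leukocyte and macrophage list had positive estimates, and over all 4 the median was 0.34. Ptprc, the pan-leukocyte CD45 gene, named after its values were seen, had 1.81 ± 0.72 (adjusted p = 0.619 by edgeR), with all del/CreERT2 libraries above all WT libraries at 1.24 ± 0.18 against 0.346 ± 0.27 CPM. The part of these cell types in the members' values was not tested.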

How the data were processed

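RNA of 16 mouse embryonic heart samples was extracted with Qiazol and the miRNeasy micro kit and amplified with Ovation RNA-seq System V2, per the labels' protocols. TopHat2, featureCounts and edgeR and the build mm9 are named in the submitters' processing notes; versions and strand use are not given in these sources. The authors deposited 1 table with whole-number counts per gene, handled here as estimated counts that needed no rounding, together with their own log2 fold changes and adjusted p-values per comparison. A further 52 columns of per-sample or mean values were not used. Total counts per library were 21436305 to 42731841, and 415 genes without a symbol held at most 0.117% of them.

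Here the counts were filtered with filterByExpr (14612 genes tested) and scaled by TMM, and CPM refers to TMM-scaled libraries. One edgeR 4.0.16 quasi-likelihood fit (R 4.3.3) over all 4 genotypes gave 6 comparisons, with Benjamini-Hochberg adjustment over all tested genes at 0.05. Estimates with ± are log2 change ± SE. Alternatives used DESeq2 1.42.0, limma 3.58.1 (voom with quality weights), other scalings, filters and designs, and left out libraries. The fit was tested on simulated data. No pair of libraries of a genotype differed by as little as counting error (chi-square divided by its degrees of freedom was 25.36 to 697), so all 16 were kept.

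The members and lists were chosen with earlier results of these data known. Given by library were both inhibitors, the member with the lowest p in each direction for each gene group and comparison with WT, and the member with the largest ratio of genotype means in each group. For the other cell cycle lists, the p53 targets and the epicardial markers, the gene with the lowest p in del/CreERT2 against WT is named. Of the remaining marker lists, only a called gene and a gene marked as named after its values were seen are given. Motifs were matched in RefSeq promoter windows of GRCm38.p6, and gene coordinates are those of the deposited table (mm9).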

Additional observations from a re-analysis of the deposited data

Results flagged for a closer look

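Among 100 groups of 4 libraries examined (18 members given by library, group means and library measures), 4 held a value far from the other 3 by Dixon's ratio, which marks about 1 in 20 groups by chance. Ccnb1 was 64.0 CPM in del/CreERT2 3 against 81.0 to 82.0 in the other del/CreERT2 libraries. Mcm7 was 33.8 CPM in del/CreERT2 4 against 23.2 to 24.3 in the others. The share of counts in mitochondrial ribosomal RNA was 60.6% in WT 4 against 67.9% to 69.3% in the other WT libraries. The G2/M mean of log2(CPM + 0.5) was 5.24 in the same library, WT 4, against 5.53 to 5.57.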

How the results depend on the processing

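The count of members called was 0 of 41 in all 6 comparisons under each of the 26 alternatives run; the lowest adjusted p of any was 0.239 (Ccne2, del/CreERT2 against WT, with the mitochondrial share as a covariate). With any 1 library left out, gene estimates that changed sign ranged from -0.222 to 0.023 for Ccne1 in del/CreERT2 against WT, from -0.014 to 0.474 and from -0.078 to 0.264 for Cdkn1b in CreERT2/+ and del/CreERT2, from -0.197 to 0.040 and from -0.223 to 0.013 for Rrm1 in del/+ and del/CreERT2, and from -0.099 to 0.286 for Tyms in CreERT2/+. The difference between G2/M and G1 and S medians also changed sign in 3 comparisons: -0.168 to 0.087 in CreERT2/+ against WT, -0.058 to 0.079 in del/CreERT2 against WT and -0.039 to 0.165 in del/CreERT2 against CreERT2/+. Over all genes the calls depended more on the setting: 10 to 120 in del/+ against WT (17 as reported), 3 to 73 in CreERT2/+ (5) and 13 to 189 in del/CreERT2 (49), with 47, 21 and 128 by DESeq2. Between Tbx5 genotypes the ranges were 2 to 65 (3), 2 to 92 (11) and 0 to 36 (0). The labels' replicate numbers were not shown to pair the samples: 5 of 24 correlations of same-numbered libraries exceeded 0.1 (-0.446 to 0.606), and 9 of 16 libraries correlated best with their own number. With a replicate block, 0 members were called in each comparison, Ccnb2 in del/+ had an adjusted p of 0.773, and 41 genes were called in del/CreERT2 against WT. Intervals of most members lay within 2-fold in both directions, and changes under 2-fold could have gone undetected at this depth and number of libraries.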
